A study of Mus musculus with 6 samples.

Results

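The matrix metalloproteinases (MMP), the ADAMTS proteases, the ADAMTS-like proteins (ADAMTSL) and the tissue inhibitors of metalloproteinases (TIMP) were examined in whole lungs of TNF+ and TNF- mice. Members are all rows of the count table whose symbol is Mmp, Timp, Adamts or Adamtsl followed by a number and at most 1 letter. This gave 51 of the 49568 rows, made up of 23 MMP, 4 TIMP, 19 ADAMTS and 5 ADAMTSL genes. Poly(A) RNA of 3 TNF+ and 3 TNF- lungs was sequenced, with 1 library per mouse. TNF+ mice are carriers of a human TNF transgene from a single transgenic line, which develops erosive arthritis and pulmonary vascular disease, and TNF- mice are their wildtype littermates. All 6 mice were female, 4 months old and on a C57BL/6 background, and no other allele or treatment separates the groups. The promoter of the transgene is not given in the sources used here. The p-values measure the spread between these 6 mice of 1 line.

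MMPs are zinc proteases that are secreted or held at the cell surface as inactive proforms and that cut collagens, elastin and other matrix proteins as well as cytokines and receptors. TIMPs bind the active site of MMPs and, with different preference, of ADAM and ADAMTS proteases. ADAMTS proteases are secreted enzymes that carry thrombospondin repeats and cut proteoglycans, procollagens or von Willebrand factor, and ADAMTSL proteins share the repeats but lack the protease domain. In the lung these families are known for their part in the turnover of elastic fibers, basement membranes and vessel walls, and Mmp12 and Mmp9 are known as products of macrophages and of neutrophils.

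The total counts per lung lay between 25396923 and 32529408. A level of 3 counts, taken here as the smallest detectable, stood at 0.0880 to 0.131 CPM (counts scaled to a library of fixed size) after TMM scaling, which covers counting error only. Mouse Tnf, which is not the human transgene, had 106, 213 and 405 counts in TNF+ lungs and 16, 14 and 35 counts in TNF- lungs. Some libraries stood apart from the others of their group. The gene Gm42418 took up 5.22% of all counts in TNF+ replicate 1 and 0.0774% to 0.274% elsewhere. TNF- replicate 1 held RNA of squamous epithelium and skeletal muscle, with 54058 normalized counts of the keratin gene Krt4 where no other lung had more than 7.67. In TNF+ replicates 1 and 2 the summed level of 5 fat cell genes was 4.62 and 3.76 CPM, against 34.1 to 68.6 CPM in the other 4 lungs. Counts of called genes are therefore also given without replicate 1 of both groups, a choice made after seeing the data.

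Of the 51 genes, 42 had enough counts to be tested. Over all 19199 genes that entered edgeR's quasi-likelihood test, 47.4% were called at an adjusted p-value of 0.05 (Benjamini-Hochberg), 24.0% higher and 23.4% lower in TNF+ lungs. Of the 42 metalloproteinase and inhibitor genes tested, 30 (71.4%) were called, 11 higher (26.2%) and 19 lower (45.2%) in TNF+ lungs. Without replicate 1 of both groups, 11 were called higher and 15 lower. Over all genes, 6064 were called in that setting, against 9096 with all 6 lungs. With all 6 lungs and a change of at least 2-fold, 8 of the 42 genes were higher and 9 lower. Of all genes tested, 10.3% were in the first class and 12.2% in the second. The normalized counts of the groups did not overlap for 33 of the 42 genes (78.6%), 12 with TNF+ above and 21 with TNF+ below, against 58.7% of all genes tested. The median log2 fold change of the 42 genes was -0.41, and that of all genes tested was 0.03. By family there were 6 higher and 5 lower of 16 tested MMP genes, 2 higher and 2 lower of 4 TIMP genes, 3 higher and 9 lower of 17 ADAMTS genes and 0 higher and 3 lower of 5 ADAMTSL genes. In whole lung, more or fewer cells of a type and more or less RNA per cell cannot be told apart.

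**Figure D1:**
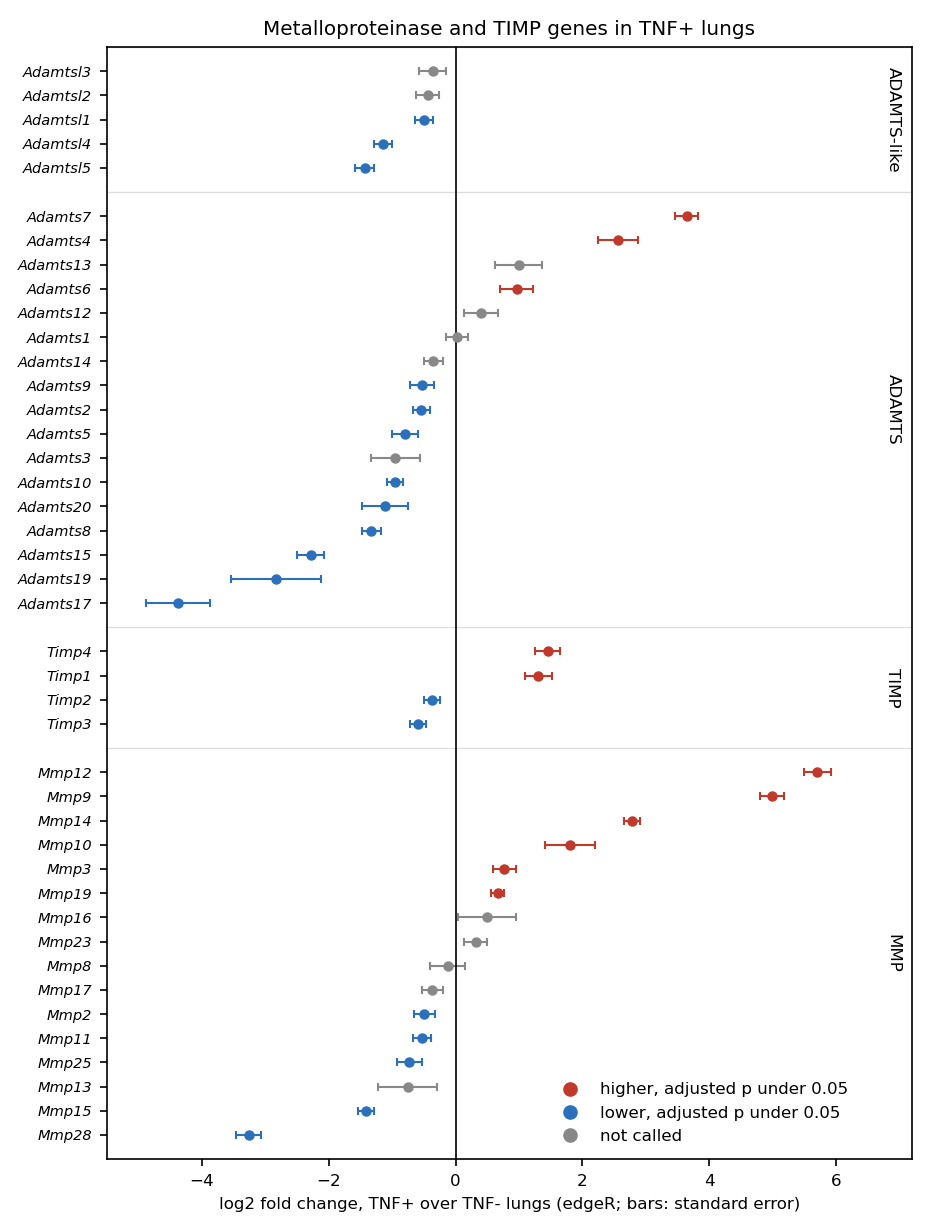
Log2 fold change of TNF+ over TNF- lungs (horizontal axis) for the 42 tested genes, grouped by family, with points for the edgeR estimate and bars for its standard error (n = 3 lungs per group). Red points were called higher, blue points lower and grey points were not called. Mmp12, Mmp9 and Adamts7 lie farthest to the right and Adamts17, Mmp28 and Adamts19 farthest to the left.

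The largest rise of the families was that of Mmp12 (chromosome 9 of GRCm38, 7344381 to 7369499, plus strand), the macrophage metalloelastase, which cuts elastin. Normalized counts of Mmp12 were 6619, 8526 and 5930 in TNF+ lungs and 122, 116 and 164 in TNF- lungs. The groups lay far apart, and the lowest TNF+ lung stood above every TNF- lung. The rise was 52.2-fold (log2 fold change 5.71, standard error 0.21, adjusted p = 2.72e-06), and by p-value Mmp12 ranked 19 of the 19199 genes tested. Of the exon bases of Mmp12, 2.2% lie opposite an exon of Mmp1b, which had 0 counts in every lung.

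Mmp9 (chromosome 2, 164940780 to 164955850, plus strand) and Mmp2 are the gelatinases, which cut denatured collagen and the type IV collagen of basement membranes. Normalized counts of Mmp9 were 15900, 18846 and 13620 in TNF+ lungs and 449, 482 and 589 in TNF- lungs. All TNF+ lungs were above all TNF- lungs, and the difference of the means was several times the spread within either group. The rise was 31.8-fold (log2 fold change 4.99, standard error 0.18, adjusted p = 2.72e-06), which placed Mmp9 at rank 17. Normalized counts of Mmp2 were 2943, 3932 and 2487 in TNF+ lungs and 4408, 4676 and 4080 in TNF- lungs. The direction was opposite to that of Mmp9, and the groups did not overlap. The fall of Mmp2 was small (log2 fold change -0.49, standard error 0.16, adjusted p = 0.0383), and its call was lost without TNF+ replicate 1 (adjusted p = 0.0886), TNF+ replicate 3 (0.0826), TNF- replicate 1 (0.0619), TNF- replicate 2 (0.111) or replicate 1 of both groups (0.133).

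Among the membrane-type MMPs, Mmp14 and Mmp15 moved in opposite directions. Mmp14 (chromosome 14, 54431612 to 54445364, plus strand) encodes MT1-MMP, a cell surface collagenase that also activates pro-MMP2. Normalized counts of Mmp14 were 10018, 11330 and 8868 in TNF+ lungs and 1603, 1371 and 1414 in TNF- lungs. The groups did not overlap, and the rise was 6.89-fold (log2 fold change 2.78, standard error 0.13, adjusted p = 5.09e-06). Mmp15 (chromosome 8, 95352268 to 95375080, plus strand) encodes MT2-MMP. Normalized counts of Mmp15 were 3279, 3015 and 2634 in TNF+ lungs and 8371, 8538 and 6872 in TNF- lungs. Every TNF+ lung was below every TNF- lung, at a level 2.66-fold lower (log2 fold change -1.41, standard error 0.13, adjusted p = 8.96e-05). Normalized counts of Mmp25, the membrane-anchored MMP of leukocytes, were 79.1, 71.4 and 71.7 in TNF+ lungs and 104, 143 and 122 in TNF- lungs. This gene was lower without overlap (log2 fold change -0.73, adjusted p = 0.0168), with the call lost without TNF- replicate 2 (adjusted p = 0.0582). Mmp16 and Mmp17 were not called (log2 fold changes 0.49 and -0.37), and Mmp24 had at most 2 counts in any lung.

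The stromelysins, which cut a broad range of matrix proteins, gave 2 rises and 1 fall. Normalized counts of Mmp10 were 36.9, 71.4 and 78.4 in TNF+ lungs and 25.8, 16.3 and 11.6 in TNF- lungs. The groups did not overlap, although TNF+ replicate 1 lay much nearer to the TNF- lungs than the other TNF+ lungs did. Mmp10 was 3.50-fold higher (log2 fold change 1.81, standard error 0.40, adjusted p = 0.00693). Normalized counts of Mmp3 were 1126, 1856 and 1403 in TNF+ lungs and 817, 971 and 787 in TNF- lungs, a smaller rise without overlap (log2 fold change 0.77, standard error 0.18, adjusted p = 0.00902). Mmp11, which is activated inside the cell, had normalized counts of 476, 444 and 617 in TNF+ lungs and 739, 760 and 729 in TNF- lungs. It was lower without overlap (log2 fold change -0.53, standard error 0.14, adjusted p = 0.0150), and the call was lost without TNF+ replicate 2 (adjusted p = 0.0567) and without replicate 1 of both groups (adjusted p = 0.0776).

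Of the 4 genes classed here as collagenases, which cut fibrillar collagen, 2 were tested and neither was called. Mmp14 is counted with the membrane-type MMPs above and is not in this class. Mmp8, the collagenase of neutrophil granules, had normalized counts of 187, 91.0 and 147 in TNF+ lungs and 128, 155 and 179 in TNF- lungs. These groups overlapped widely (log2 fold change -0.12, standard error 0.27, adjusted p = 0.735). Mmp13 had 7.91 to 21.7 normalized counts in TNF+ lungs and 17.8 to 33.5 in TNF- lungs, again with overlap (adjusted p = 0.213). The rodent Mmp1a and Mmp1b had 0 counts in all 6 lungs. The matrilysin Mmp7 had at most 5 counts in any lung, so a difference was not detectable at this depth.

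Of the other MMPs, Mmp28 (chromosome 11, 83440768 to 83463071, minus strand) fell most. It encodes epilysin, an MMP of epithelium that is also made by macrophages. Normalized counts of Mmp28 were 186, 193 and 207 in TNF+ lungs and 2246, 2050 and 1344 in TNF- lungs. The TNF+ lungs were close to each other and all far below the lowest TNF- lung, at a level 9.61-fold lower (log2 fold change -3.26, standard error 0.20, adjusted p = 1.40e-05). An antisense gene lies opposite 12% of the exon bases of Mmp28. Mmp19 was higher without overlap, with 1020 to 1079 normalized counts in TNF+ lungs against 613 to 737 in the TNF- group (log2 fold change 0.66, adjusted p = 0.00142), but 28.3% of its exon bases lie opposite Gm47093 and Tmem198b, and the strand setting of the counting is not given in the sources used here. Mmp23 was not called (log2 fold change 0.32, adjusted p = 0.177). Mmp20, an enamel protease, had 0 counts in every lung, and Mmp21 and Mmp27 had too few counts to be tested.

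**Figure D2:**
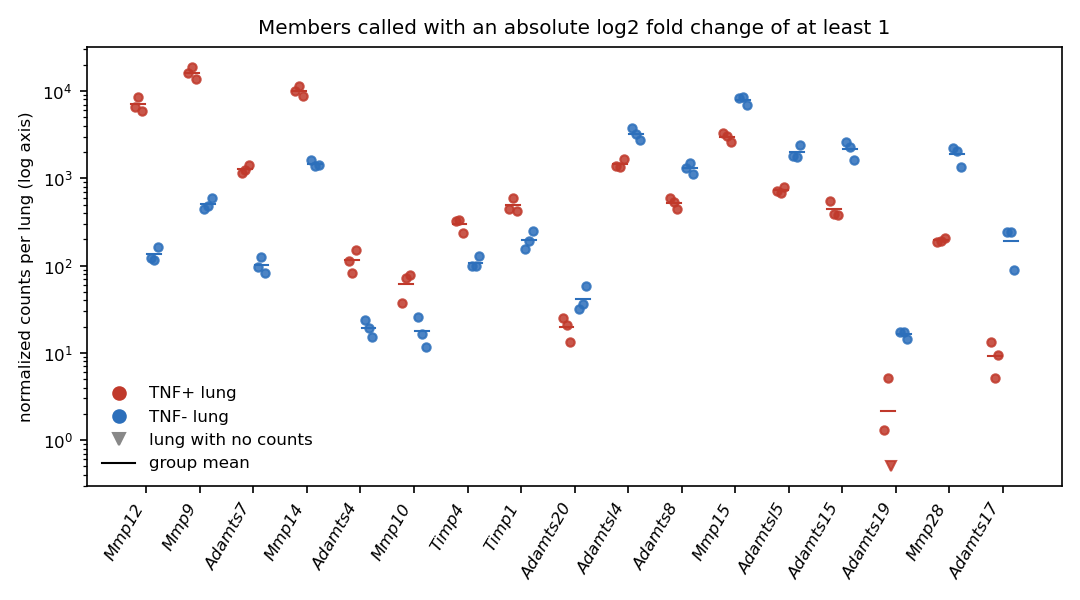
Normalized counts per lung on a log axis for the 17 genes called with an absolute log2 fold change of at least 1, ordered by fold change (red, TNF+; blue, TNF-; short lines, group means; triangle, a lung with no counts). In none of these genes do the groups overlap. The group means lie farthest apart for Mmp12 and Mmp9 among the higher genes and for Adamts17 and Mmp28 among the lower ones.

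The 4 TIMP genes were all called, and they split by direction. Timp1, the inducible member and a strong inhibitor of Mmp9, had normalized counts of 446, 595 and 427 in TNF+ lungs and 153, 193 and 248 in TNF- lungs. It was 2.47-fold higher with no overlap (log2 fold change 1.30, standard error 0.21, adjusted p = 0.00153). Timp4, known from the heart and from fat cells, had normalized counts of 322, 334 and 236 in TNF+ lungs and 98.4, 97.8 and 129 in TNF- lungs. It was 2.74-fold higher, also with no overlap (log2 fold change 1.45, standard error 0.20, adjusted p = 0.000709). The part of fat cells in these values was not tested.

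Timp3, which is bound to the matrix and also inhibits ADAM17 and the aggrecanases, had normalized counts of 17893, 16536 and 15559 in TNF+ lungs and 27118, 26185 and 22229 in TNF- lungs. Its level was lower in every TNF+ lung (log2 fold change -0.60, standard error 0.13, adjusted p = 0.00635). Exons of Syn3, within which Timp3 lies on the other strand, cover 21.3% of the exon bases of Timp3. Syn3 had 13 to 25 counts in TNF+ lungs and 41 to 56 in TNF- lungs, and its part in the Timp3 values was not tested. Timp2, which takes part in the activation of pro-MMP2 at the cell surface, had normalized counts of 14301, 15074 and 13170 in TNF+ lungs and 20963, 17325 and 16663 in TNF- lungs. The groups did not overlap, but the difference was small (log2 fold change -0.37, standard error 0.13, adjusted p = 0.0473). This call was lost when any lung but TNF- replicate 3 was left out, with adjusted p = 0.0876, 0.0802 and 0.0943 without TNF+ replicates 1, 2 and 3 and 0.129 and 0.0816 without TNF- replicates 1 and 2, and it was lost without replicate 1 of both groups (0.248) and without the filter on low counts (0.0652).

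Levels of different genes were compared as CPM per kilobase of exon, taking the union of all annotated exons as the length. On this scale, in TNF- lungs the highest mean levels were those of Timp2 (155 CPM per kb), Timp3 (102), Mmp15 (48.5), Mmp2 (43.0) and Adamts10 (33.2). The ranges of Mmp15 (42.1 to 52.2 CPM per kb) and Mmp2 (40.0 to 45.8) overlapped, and the others in this order were separate. In TNF+ lungs Mmp9 had the highest mean level (150 CPM per kb), ahead of Timp2 (120), Timp3 (67.6), Mmp14 (55.8), Mmp12 (32.1), Mmp2 (30.6) and Mmp3 (26.8). The ranges of Mmp9 (127 to 176 CPM per kb) and Timp2 (112 to 128) overlapped narrowly, Timp3 and Mmp14 did not overlap by a narrow margin, and Mmp12, Mmp2 and Mmp3 overlapped with each other. The order depended on the length used. With the longest transcript as the length, a setting added after seeing the data, the mean levels in TNF- lungs were 176 CPM per kb for Timp3, 163 for Timp2, 66.4 for Adamts10, 51.0 for Mmp15 and 47.1 for Mmp2, so that Timp3 passed Timp2, with overlapping ranges, and Adamts10 passed Mmp15 and Mmp2. In TNF+ lungs Mmp9 (168 CPM per kb) still had the highest mean, its range (142 to 196) then lay above that of Timp2 (117 to 134), and the ranges of Timp3 (109 to 125) and Mmp14 (90.4 to 115) overlapped. Mmp12 then stood at 51.9 CPM per kb in TNF+ lungs, with a range (43.8 to 62.9) above that of Mmp2 (26.7 to 42.2), and the mean of Adamts10 (34.3) passed that of Mmp2 (33.5).

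The sum of the 23 MMP levels was 334, 397 and 300 CPM per kb in TNF+ lungs and 166, 172 and 149 in TNF- lungs. Without Mmp9 alone the sum was still higher in TNF+ lungs, at 173 to 221 CPM per kb against 144 to 167. Without the 3 MMP genes that rose most (Mmp9, Mmp12 and Mmp14), a choice made from the change itself, it was lower, with 99.5, 120 and 96.3 CPM per kb in TNF+ lungs and 152, 159 and 135 in TNF- lungs. The sum of the 4 TIMP levels was 212, 219 and 192 CPM per kb in TNF+ lungs and 294, 261 and 241 in TNF- lungs. The ratio of the TIMP sum to the MMP sum was thus 0.636, 0.551 and 0.641 in TNF+ lungs and 1.78, 1.52 and 1.62 in TNF- lungs, a description of RNA levels and not of proteins or activity. On the same scale Mmp9 held 43.7% ± 1.13 (SD, n = 3) of the MMP sum in TNF+ lungs and 2.95% ± 0.64 in TNF- lungs. Mmp14 held 16.3% ± 0.43 against 5.01% ± 0.51 (23.5% against 8.10% with the longest transcript as the length), and Mmp12 held 9.29% ± 0.43 against 0.383% ± 0.11. The shares of Mmp2 (8.82% ± 0.80 against 26.5% ± 0.39), Mmp15 (5.35% ± 0.69 against 29.9% ± 1.46) and Mmp28 (0.493% ± 0.088 against 9.81% ± 1.97) were lower in TNF+ lungs. Timp1 held 7.81% to 10.1% of the TIMP sum in TNF+ lungs and 1.94% to 3.82% in TNF- lungs.

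**Figure D3:**
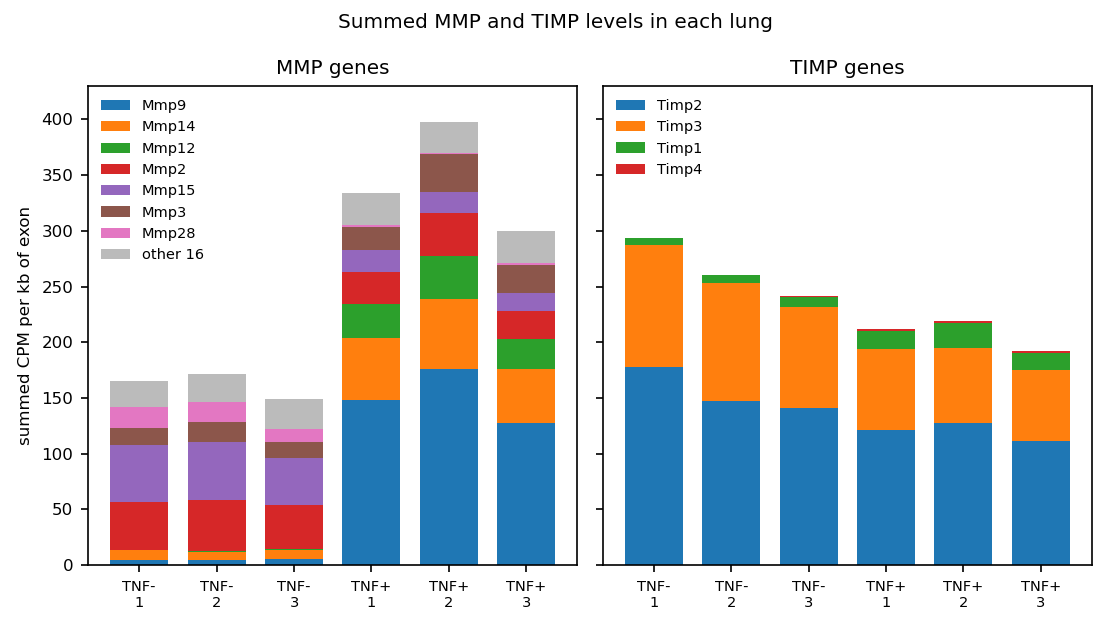
Summed levels in CPM per kb of exon of the 23 MMP genes (left panel) and the 4 TIMP genes (right panel), 1 bar per lung, with the genes as colored segments. The MMP bars of TNF+ lungs reach 300 to 397 and those of TNF- lungs 149 to 172, while the TIMP bars are lower in TNF+ lungs (192 to 219) than in TNF- lungs (241 to 294).

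Among the ADAMTS proteases that cut proteoglycans (the aggrecanases and versicanases), Adamts4 rose and 5 members fell. Adamts4 (chromosome 1, 171250421 to 171260637, plus strand), an inducible aggrecanase, had normalized counts of 113, 81.7 and 150 in TNF+ lungs and 23.9, 19.2 and 15.1 in TNF- lungs. It was 5.92-fold higher without overlap (log2 fold change 2.57, standard error 0.31, adjusted p = 0.000366). Adamts15 and Adamts8 are neighbors on chromosome 9, transcribed away from each other with 20.1 kb and no other coding gene between them, and both fell. Normalized counts of Adamts15 were 555, 391 and 383 in TNF+ lungs and 2582, 2274 and 1619 in TNF- lungs. Normalized counts of Adamts8, an ADAMTS of the lung vasculature, were 588, 540 and 441 in TNF+ lungs and 1322, 1495 and 1119 in TNF- lungs. Neither gene had overlapping groups, and the levels were 4.88-fold lower for Adamts15 (log2 fold change -2.29, standard error 0.21, adjusted p = 8.81e-05) and 2.51-fold lower for Adamts8 (log2 fold change -1.33, standard error 0.15, adjusted p = 0.000245). An antisense gene, Gm29724, lies opposite 10.6% of the exon bases of Adamts8.

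Adamts1 and Adamts5, neighbors on chromosome 16 with 53.1 kb between them, differed in result. Adamts5, the main aggrecanase of mouse cartilage, had normalized counts of 222, 176 and 162 in TNF+ lungs and 387, 332 and 254 in TNF- lungs and was lower without overlap (log2 fold change -0.80, standard error 0.20, adjusted p = 0.0121). Adamts1 had 1887 to 3212 normalized counts in TNF+ lungs and 2406 to 2670 in TNF- lungs, so that the TNF+ lungs spread around the others (log2 fold change 0.02, adjusted p = 0.932). Normalized counts of Adamts20 were 25.1, 20.7 and 13.2 in TNF+ lungs and 31.5, 36.4 and 57.8 in TNF- lungs. The groups of this weakly expressed gene did not overlap (log2 fold change -1.11, standard error 0.36, adjusted p = 0.0352), and its call was lost without TNF+ replicate 2 (adjusted p = 0.0796), TNF+ replicate 3 (0.106), TNF- replicate 2 (0.0585) or TNF- replicate 3 (0.112). Normalized counts of Adamts9, a versicanase, were 923, 916 and 1105 in TNF+ lungs and 1758, 1450 and 1041 in TNF- lungs. It was called lower although the groups overlapped (log2 fold change -0.53, standard error 0.18, adjusted p = 0.0445), and antisense genes lie opposite 12% of its exon bases. Its call was lost without TNF+ replicate 1 (adjusted p = 0.103), TNF+ replicate 2 (0.126), TNF- replicate 1 (0.121), TNF- replicate 2 (0.107) or replicate 1 of both groups (0.238), and also with limma-voom (0.0594) and scaling by total counts (0.0539).

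Adamts7 and Adamts12 are known to bind and cut COMP, a matrix protein of cartilage and vessel walls. Normalized counts of Adamts7 (chromosome 9, 90163069 to 90208071, plus strand) were 1156, 1236 and 1416 in TNF+ lungs and 97.5, 125 and 81.8 in TNF- lungs. The TNF+ lungs all lay far above the TNF- lungs, with a 12.5-fold rise (log2 fold change 3.65, standard error 0.18, adjusted p = 5.80e-06), the largest among the ADAMTS genes. Adamts12 was not called (log2 fold change 0.40, adjusted p = 0.252). Of the procollagen N-proteinases, which trim the amino end of fibrillar procollagens, Adamts2 was lower, with 1234 to 1540 normalized counts in TNF+ lungs against 1698 to 2195 in the TNF- group (log2 fold change -0.54, adjusted p = 0.00981). Adamts3 and Adamts14 were not called (log2 fold changes -0.95 and -0.35). Adamts13, the von Willebrand factor-cleaving protease, had 15.8 to 20.8 normalized counts in TNF+ lungs and 7.11 to 12.4 in TNF- lungs and was not called (log2 fold change 1.00, adjusted p = 0.0532).

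The other ADAMTS genes included the largest fall. Adamts17 (chromosome 7, 66839735 to 67153171, plus strand), a fibrillin-associated protease linked to short stature with eye disease, had normalized counts of 13.2, 5.17 and 9.44 in TNF+ lungs and 243, 243 and 88.0 in TNF- lungs. TNF- replicate 3 was well below the other TNF- lungs, but still above all TNF+ lungs. The level was 20.8-fold lower (log2 fold change -4.38, standard error 0.51, adjusted p = 0.000288). Adamts10, its relative in the fibrillin-rich matrix, had 3891 to 4959 normalized counts in TNF+ lungs and 7679 to 8884 in TNF- lungs and was lower (log2 fold change -0.95, adjusted p = 0.000583). Normalized counts of Adamts6, which acts on fibrillin microfibrils, were 72.5, 124 and 109 in TNF+ lungs and 51.6, 45.0 and 60.4 in TNF- lungs. It was higher without overlap (log2 fold change 0.96, standard error 0.26, adjusted p = 0.0163), a call lost without TNF+ replicate 2 (adjusted p = 0.0592), TNF+ replicate 3 (0.0503) or TNF- replicate 2 (0.0576).

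Adamts19, an ADAMTS known from heart valves, had 1, 5 and 0 counts in TNF+ lungs and 18, 18 and 16 counts in TNF- lungs. All TNF+ lungs were lower (log2 fold change -2.84, standard error 0.71, adjusted p = 0.0118), with 2 of the 3 at or below the 3 counts taken as detectable. The size rested on TNF+ replicate 2, without which the log2 fold change was -4.58, a larger fall than that of Adamts17 in that setting (-4.09). The call of Adamts19 was lost without replicate 1 of both groups (adjusted p = 0.0589). Adamts16 and Adamts18 had too few counts to be tested.

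The ADAMTSL genes had 3 falls and no rise. Normalized counts of Adamtsl5, a fibrillin-binding protein, were 713, 687 and 800 in TNF+ lungs and 1778, 1745 and 2424 in TNF- lungs. Normalized counts of Adamtsl4, which also binds fibrillin, were 1378, 1337 and 1682 in TNF+ lungs and 3760, 3197 and 2771 in TNF- lungs. In both genes every TNF+ lung was below every TNF- lung, by 2.70-fold for Adamtsl5 (log2 fold change -1.43, standard error 0.15, adjusted p = 0.000146) and 2.21-fold for Adamtsl4 (log2 fold change -1.15, standard error 0.14, adjusted p = 0.000394). Adamtsl1 had normalized counts of 473, 341 and 387 in TNF+ lungs and 552, 558 and 578 in TNF- lungs. Its fall without overlap (log2 fold change -0.49, standard error 0.14, adjusted p = 0.0208) was lost as a call without TNF+ replicate 2 (adjusted p = 0.0782), TNF+ replicate 3 (0.0608) or TNF- replicate 2 (0.0592). Adamtsl2 and Adamtsl3 were not called (log2 fold changes -0.44 and -0.36).

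Of the 23 MMP genes, 10 lie together on chromosome 9 between 7272514 and 7699585 of GRCm38, a stretch of 427 kb that holds no other protein-coding gene. From the start of the stretch they are Mmp13, Mmp12, Mmp1b, Mmp3, Mmp1a, Mmp10, Mmp8, Mmp27, Mmp20 and Mmp7. Of the 10, 5 were tested. Mmp12, Mmp3 and Mmp10 were higher, where 24.0% of all genes tested were, and none was lower. Mmp13 and Mmp8 were not called, and 3 genes had no count in any lung. The neighbors thus differed widely in level, from 27.1 to 38.9 CPM per kb for Mmp12 in TNF+ lungs to 0 for Mmp1b, whose end overlaps that of Mmp12.

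**Figure D4:**
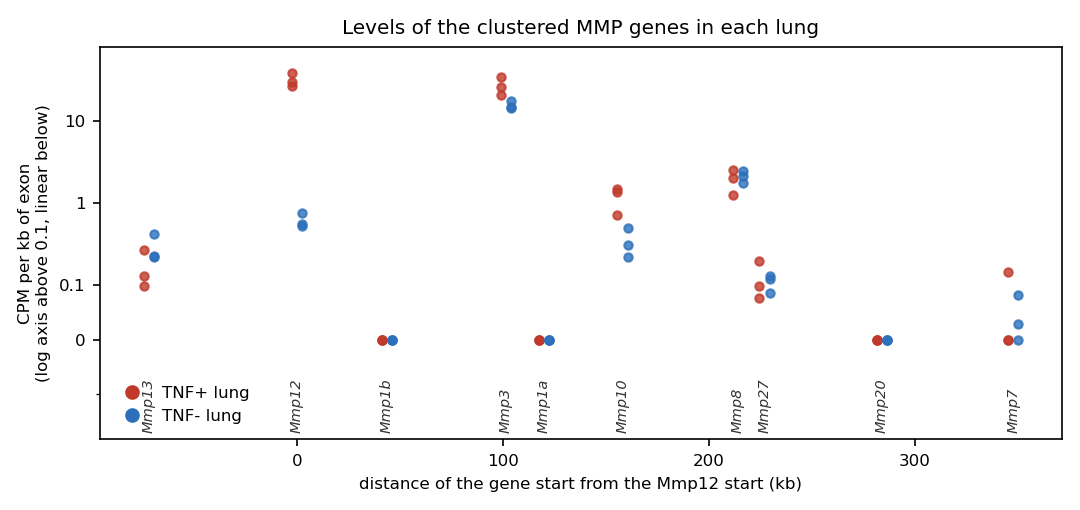
Level of the 10 clustered MMP genes in each lung, in CPM per kb of exon (vertical axis, logarithmic above 0.1 and linear below), against the distance of the gene start from that of Mmp12 in kb (red, TNF+; blue, TNF-). The groups are far apart at Mmp12, apart at Mmp3 and Mmp10, and overlap at Mmp13 and Mmp8, and Mmp1b, Mmp1a and Mmp20 lie at 0 in all lungs.

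For the 3 neighbors called higher, the last 100 bases before a RefSeq transcript start are shown, a choice made from the calls. Those of the 2 tested neighbors that were not called are shown for comparison. The rises differed in size (log2 fold changes 5.71 for Mmp12, 0.77 for Mmp3 and 1.81 for Mmp10), and a shared control was not tested. Capitals mark the letters TGANTCA, a form of the AP-1 binding motif that several MMP promoters are known to carry, and TATAAA, the TATA box, searched on both strands. All 5 genes lie on the plus strand, and the windows (RefSeq, GRCm38) are chr9:7347274-7347373 for the second of the 2 RefSeq starts of Mmp12, chr9:7445722-7445821 for Mmp3, chr9:7502242-7502341 for Mmp10, chr9:7272414-7272513 for Mmp13 and chr9:7558329-7558428 for Mmp8.
Mmp12: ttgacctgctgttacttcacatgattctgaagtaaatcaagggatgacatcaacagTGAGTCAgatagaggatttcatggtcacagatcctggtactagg
Mmp3: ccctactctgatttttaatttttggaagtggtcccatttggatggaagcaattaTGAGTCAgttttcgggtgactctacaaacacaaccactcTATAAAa
Mmp10: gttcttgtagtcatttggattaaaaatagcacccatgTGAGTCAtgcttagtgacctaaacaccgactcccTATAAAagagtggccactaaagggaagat
Mmp13: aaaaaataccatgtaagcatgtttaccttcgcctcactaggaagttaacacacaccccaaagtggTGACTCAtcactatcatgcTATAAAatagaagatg
Mmp8: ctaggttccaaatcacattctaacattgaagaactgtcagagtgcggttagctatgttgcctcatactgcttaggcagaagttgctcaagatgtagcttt
The AP-1 letters began 44 bases before the start in Mmp12, 46 in Mmp3, 63 in Mmp10 and 35 in Mmp13, and the Mmp8 window held neither motif. TATAAA began 7 bases before the start in Mmp3, 29 in Mmp10 and 16 in Mmp13. All these distances depend on the start that RefSeq gives. For Mmp12 the AP-1 letters were found at the second start only. The 250 bases before its first start, chr9:7344147-7344396, at the annotated start of the gene, held neither motif. The AP-1 letters were also present in Mmp13, which was not called.

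Of the 51 genes, 36 had a RefSeq promoter entry, and those without one include Mmp9, Adamts4, Adamts7, Adamts8 and Adamts15. The 36 genes gave 39 windows of 250 bases before a start, of which 8 (20.5%) held the AP-1 letters, against 6.75% of 32851 such windows over all genes. The 8 windows belong to 8 genes, all in the chromosome 9 cluster, so they are not independent cases to set against that share. Mmp12 and Mmp7 each also have a window without the letters. Of these 8 genes, 3 were called higher (Mmp12, Mmp3 and Mmp10), 1 was not called (Mmp13) and 4 had too few counts to be tested (Mmp1a, Mmp1b, Mmp7 and Mmp20). TATAAA was found in 10 of the 39 windows (25.6%), against 12.37% over all genes, and the NF-kB motif was found in 1 (2.56%, Mmp25), against 3.9%. Such matches describe the letters of these windows and not binding.

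Marker genes of cell types were also read, where 47.4% of all genes tested were called in either direction. Of 10 macrophage markers, 9 were higher and 1 (Siglecf) lower in TNF+ lungs, and their summed level was 4809 to 6924 CPM in TNF+ lungs and 538 to 612 CPM in TNF- lungs. Of 6 neutrophil markers, 1 (Csf3r) was higher, 4 were lower and 1 (Ly6g) was not called. Their sums overlapped, with 63.1 to 96.8 CPM against 85.4 to 146 CPM. All 5 endothelial markers were lower (1161 to 1384 CPM against 2290 to 2845 CPM), as were 5 of 7 fibroblast markers (839 to 880 CPM against 1201 to 1858 CPM) and 4 of 6 markers of smooth muscle and pericytes (609 to 660 CPM against 899 to 1140 CPM). Each sum covers its whole list. Of 6 markers of alveolar epithelium, Ager, Hopx and Aqp5 were lower (log2 fold changes -1.40, -1.60 and -1.88). Sftpc (-0.52, adjusted p = 0.0837), Sftpa1 (0.09) and Lamp3 (0.19) were not called. The sum of these 6 (13319 to 17312 CPM against 19063 to 23508 CPM) was mostly Sftpc. The part of these cell types in the values of the metalloproteinase genes was not tested.

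Genes that act on or with the metalloproteinases were also read from lists. Of 8 tested activators, 1 was higher and 4 lower (62.5% called, against 47.4% of all genes tested). Plau, the urokinase that generates plasmin, was higher (log2 fold change 1.35, adjusted p = 0.000457), and the proprotein convertases Pcsk6 (log2 fold change -2.21, adjusted p = 1.14e-05) and Pcsk5 (-0.82, adjusted p = 0.000760) were lower. Among inhibitors outside the TIMPs, the broad protease trap A2m was higher (log2 fold change 2.15, adjusted p = 0.00233). The membrane-anchored MMP inhibitor Reck (log2 fold change -1.90, adjusted p = 4.21e-05) and Pzp (-1.76, adjusted p = 0.0455), a relative of A2m, were lower.

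Of 10 ADAM genes, 4 were higher and 2 lower. Adam17, which releases TNF from the cell surface, was the most changed of the higher ones (log2 fold change 1.51, adjusted p = 4.56e-05), followed by Adam19 (0.58, adjusted p = 0.00666), and Adam28 (-1.59, adjusted p = 0.000253) and Adam33 (-1.04, adjusted p = 0.00555) were lower. Of 7 tested elastolytic and collagenolytic proteases of other classes, the 4 cathepsins were higher, led by Ctss (log2 fold change 3.22, adjusted p = 2.15e-05) and Ctsb (2.10, adjusted p = 3.67e-05). The 3 serine proteases were lower, led by the neutrophil elastase gene Elane (-4.90, adjusted p = 0.000680) and the mast cell chymase Cma1 (-3.17, adjusted p = 0.00240). Elane had 1, 0 and 1 counts in TNF+ lungs against 33, 16 and 32 in TNF- lungs. Cma1 had 2, 2 and 14 counts against 77, 55 and 53. In most TNF+ lungs these counts were below the 3 taken as detectable, so the sizes of both falls are uncertain. The groups of the third gene, Prtn3, overlapped (adjusted p = 0.0453). Of 13 tested matrix substrates, 1 was higher and 6 lower (53.8% called, near the 47.4% of all genes tested). Comp, cut by Adamts7, was higher (log2 fold change 1.50, adjusted p = 0.00373), whereas Vwf, the substrate of Adamts13 and an endothelial product, and Col3a1, a fibrillar collagen, were lower (log2 fold changes -3.22 and -1.74, adjusted p = 9.31e-06 and 0.000319).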

How the data were processed

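Poly(A) RNA of 3 TNF+ and 3 TNF- lungs was sequenced as stranded libraries. According to the submitters' notes the authors used Trimmomatic (version 0.36, where the study's methods name another version), STAR (version 2.5.2b) on GRCm38 and featureCounts, and they deposited raw counts, whole reads per gene in each lung, with no scaling applied. The strand setting and gene annotation of the counting are not given in the sources used here.

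The column names give the genotype and number of each of the 6 mice. These counts entered edgeR (version 4.0.16, R version 4.3.3), filtered by filterByExpr and scaled by TMM, in a quasi-likelihood model with genotype alone. P-values were adjusted by Benjamini-Hochberg over all genes tested, with a threshold of 0.05. The standard error is the log2 fold change divided by the square root of F. For normalized counts, each count was divided by the TMM effective library size and brought to the mean of the 6 sizes. CPM per kb divides TMM-scaled CPM by the union of exons in GENCODE M21, which also gave positions and overlaps. Promoter sequence came from RefSeq (GRCm38.p6). Members and gene lists were chosen with earlier results of these data known. Members called with an absolute log2 fold change of at least 1, each Timp, and members whose call was lost in an alternative are described in full, and of the related lists the called genes with the 2 largest rises and falls are named, except that a result of the list of inhibitors outside the TIMPs is not reported here. Alternatives included DESeq2 (version 1.42.0), voom of limma (version 3.58.1), other scalings and filters, robust dispersion, the replicate block and left-out lungs. The scripts were tested on simulated data. The total counts per lung were 25396923 to 32529408.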

Additional observations from a re-analysis of the deposited data

How the results depend on the processing

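Of the 30 metalloproteinase and inhibitor genes called, 21 kept their call in every one of the 15 alternatives that tested them, and 9 lost it in 1 or more. No called gene changed direction. Genes called higher numbered 11 in every setting except without TNF+ replicate 2, TNF+ replicate 3 or TNF- replicate 2, each with 10. Genes called lower numbered 19, and 20 with DESeq2, 18 with limma-voom or total counts, 17 with at least 10 counts in every lung, and 13 (without TNF- replicate 2) to 20 (without TNF- replicate 3) with each lung left out in turn. Of all genes tested, 9096 were called, 8080 with total counts, 7347 to 9164 with each lung left out, and 6064 without replicate 1 of both groups. With the replicate block, 11 members were higher, 16 lower and 7686 of all genes were called, and the calls of Timp2 (adjusted p = 0.0879), Adamts9 (0.098) and Adamts20 (0.0937) were lost. The replicate numbers name different animals, and same-numbered mice did not deviate together (correlations across genes of -0.15, 0 and -0.24), with 0 of the 6 lungs most correlated with their own number in the other group. Genes outside the calls that gained one were Adamts14 (adjusted p = 0.0438) and Adamts3 (0.00836) without TNF- replicate 3, Adamtsl3 without TNF+ replicate 3 (0.0489), and Adamtsl2 with DESeq2 (0.0178), without a filter (0.0394), without TNF+ replicate 1 (0.0237) and without replicate 1 of both groups (0.0446). With the longest transcript in place of the union of exons, the share of the MMP sum held by Mmp12 moved from 9.29% to 11.8% in TNF+ lungs and from 0.383% to 0.543% in TNF- lungs, that of Mmp14 from 16.3% to 23.5% and from 5.01% to 8.10%, that of Mmp9 from 43.7% to 38.2% and from 2.95% to 2.88%, and the ratio of the TIMP to the MMP sum from 0.609 to 0.605 in TNF+ lungs and from 1.64 to 1.88 in TNF- lungs. The MMP sum then was 382 to 506 CPM per kb in TNF+ lungs and 171 to 194 in TNF- lungs, and 106 to 131 against 149 to 175 without Mmp9, Mmp12 and Mmp14. The TIMP sum was 243 to 274 against 314 to 383, and the order of levels changed as given above. Genes with few counts, such as Adamts19 and Mmp7, are limited by depth.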
